A study of Mus musculus with 5 samples.

Results

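The cathepsins and legumain are the proteases that digest protein in the lysosome, and their transcripts were compared here between aortas of diabetic db/db mice and of db/+ mice. The set held 10 genes, Ctsa, Ctsb, Ctsc, Ctsd, Ctsh, Ctsk, Ctsl, Ctss, Ctsz and Lgmn, and its probe sets were taken by annotated gene symbol. This gave 15 probe sets of 22626, and 10 genes of 12393 named on the array. Ctsb had 4 probe sets, Ctsz had 3, and each of the other genes had 1. All 15 lay above the filter on low signals, so no member was left out of the test.

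Each array held labelled RNA pooled from 6 aortas, from which the adventitia and the fat around the vessel had been removed. The db/db group had 3 such pools (replicates 1, 2 and 3), from male mice homozygous for db, a mutation of Lepr, which encodes the leptin receptor. Such mice become obese and diabetic. The db/+ group had 2 pools (replicates 2 and 3), from male heterozygotes of the same stock, BKS.Cg-m +/+ Lepr db/J, so the control mice carried 1 copy of db. Both groups were 16 to 20 weeks old and ate a regular chow diet. The strain name also gives the misty allele, m, on the chromosome opposite db. Another db/+ pool of the triplicate design was not analysed here. Because animals were pooled, the spread between arrays is that between pools and not between single mice.

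Most cathepsins are cysteine proteases of the papain family, made as inactive proforms, carried to the lysosome by mannose 6-phosphate receptors and activated there at acid pH. Ctsd is instead an aspartic protease, Ctsa a serine carboxypeptidase, and Lgmn, legumain, a cysteine protease of a separate family that cuts after asparagine and processes the proforms of several cathepsins. In the arterial wall these enzymes are known from macrophages and smooth muscle cells, where Ctss, Ctsk and Ctsl can be secreted and cut elastin and collagen. They are held in check by cystatins, and Ctss also trims the invariant chain during class II antigen presentation.

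The promoters of 3 members are shown because Ctss had the lowest db/db values relative to db/+ of the set, Ctsk is its neighbouring protein-coding gene on chromosome 3, and Ctsd is a lysosomal enzyme that most cells make. Sequences are the 250 bases before the annotated start from RefSeq, assembly GRCm38.p6, written 5′ to 3′ on the strand of the gene. Ctss lies on the plus strand at chr3:95526536-95526785, Ctsk on the plus strand at chr3:95498960-95499209, and Ctsd on the minus strand at chr7:142387828-142388077. Capitals mark the motifs described after the sequences, where they lie wholly within the 250 bases.
Ctss: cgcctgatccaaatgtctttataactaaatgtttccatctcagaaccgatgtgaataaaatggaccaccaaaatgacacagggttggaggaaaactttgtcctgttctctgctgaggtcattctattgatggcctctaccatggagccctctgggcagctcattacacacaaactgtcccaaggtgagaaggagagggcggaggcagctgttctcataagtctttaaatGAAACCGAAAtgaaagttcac
Ctsk: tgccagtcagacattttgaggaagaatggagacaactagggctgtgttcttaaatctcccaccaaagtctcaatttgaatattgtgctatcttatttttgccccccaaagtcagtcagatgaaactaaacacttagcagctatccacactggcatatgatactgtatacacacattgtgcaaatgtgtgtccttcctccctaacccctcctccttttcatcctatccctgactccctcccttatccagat
Ctsd: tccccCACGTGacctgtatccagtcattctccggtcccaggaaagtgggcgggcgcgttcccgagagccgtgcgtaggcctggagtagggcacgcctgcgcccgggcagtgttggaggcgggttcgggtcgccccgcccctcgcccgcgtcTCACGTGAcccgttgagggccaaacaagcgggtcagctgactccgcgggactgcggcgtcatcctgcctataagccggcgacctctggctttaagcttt

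The windows searched were 300 bases long, from 250 before to 50 after the start, on both strands, and 8 of the 10 genes had at least 1, with 10 windows in all. The motifs were chosen with the sequences and the values in view. The Ctsd promoter held the palindrome TCACGTGA, the core of the element bound by the lysosome gene regulator TFEB, at bases −99 to −92 and a further CACGTG at bases −245 to −240. CACGTG, which every TCACGTGA contains, stood in windows of 4 member genes, Ctsa, Ctsd, Ctsl and Lgmn, and in 7.15% of 32851 windows of all genes. TCACGTGA stood in Ctsa and Ctsd, and in 0.974% of all windows. These percentages count windows, and a gene could have more than 1. The matches of Ctsa, Ctsl and Lgmn lay in windows of a start other than the annotated gene start. The windows at the gene start of Ctsa and Lgmn held no match. The Ctss promoter held neither. It held GAAACCGAAA at bases −21 to −12, a match to the repeat of interferon regulatory factors, GAAA, any 2 bases and again GAAA, which stood in 3.44% of all windows and in no other member with a window. GAGGAAGT, an element of the myeloid factor PU.1, lay on the minus strand across the start of Ctss, at bases −2 to 6, and in Ctsc at bases −151 to −144. The Ctsc window was also of a start other than the annotated gene start. GAGGAAGT stood in 3.20% of all windows. None of these motifs was in the Ctsk window. A match describes the letters and is not a binding site shown in these data.

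Signals are MAS5 values, a linear measure of probe-set brightness scaled to a common mean on each array, and are compared between arrays for 1 probe set at a time. Changes are db/db minus db/+ on the scale of log2(signal + 16), tested with limma over 13575 probe sets, and a change was called at an adjusted p under 0.05. Of the 15 member probe sets, 0 were called, against 0.0810% of all probe sets tested. At an unadjusted p under 0.05 there was 1, of Ctss, against 8.13% of all. By the probe set with the highest mean signal for each gene, 0 of 10 genes were called, against 0.109% of all genes. Of the 11 probe sets called over the whole table, all were lower in db/db; the number was 28 without db/db replicate 1, 1 without db/+ replicate 3 and 0 without db/+ replicate 2, and member probe sets were among none of these.

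Ctss, cathepsin S, is an elastin-cutting protease that keeps its activity at neutral pH and is made mainly by macrophages, dendritic cells and B cells. Its signal was 284, 206.7 and 222.5 in db/db replicates 1, 2 and 3, against 405.7 and 506.5 in db/+ replicates 2 and 3. Every db/db pool was lower than both db/+ pools, and the highest db/db pool stayed well under the lowest db/+ pool. The mean was 238 ± 40.8 in db/db aortas (SD, n = 3) and 456 ± 71.3 in db/+ aortas (SD, n = 2), so db/db had 0.521 of the db/+ mean. The log2 change was −0.90 (SE 0.19, 95% interval −1.33 to −0.47), which is 0.536-fold with an interval of 0.397 to 0.724. The unadjusted p was 0.0012 and the adjusted p 0.19, which did not pass the threshold. By p-value Ctss ranked 86 of 13575 probe sets, and 59 of 8263 genes had a change at least as far below 0. In bulk tissue, fewer cells that express a gene and less RNA per cell cannot be told apart, for Ctss as for every gene below.

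**Figure D1:**
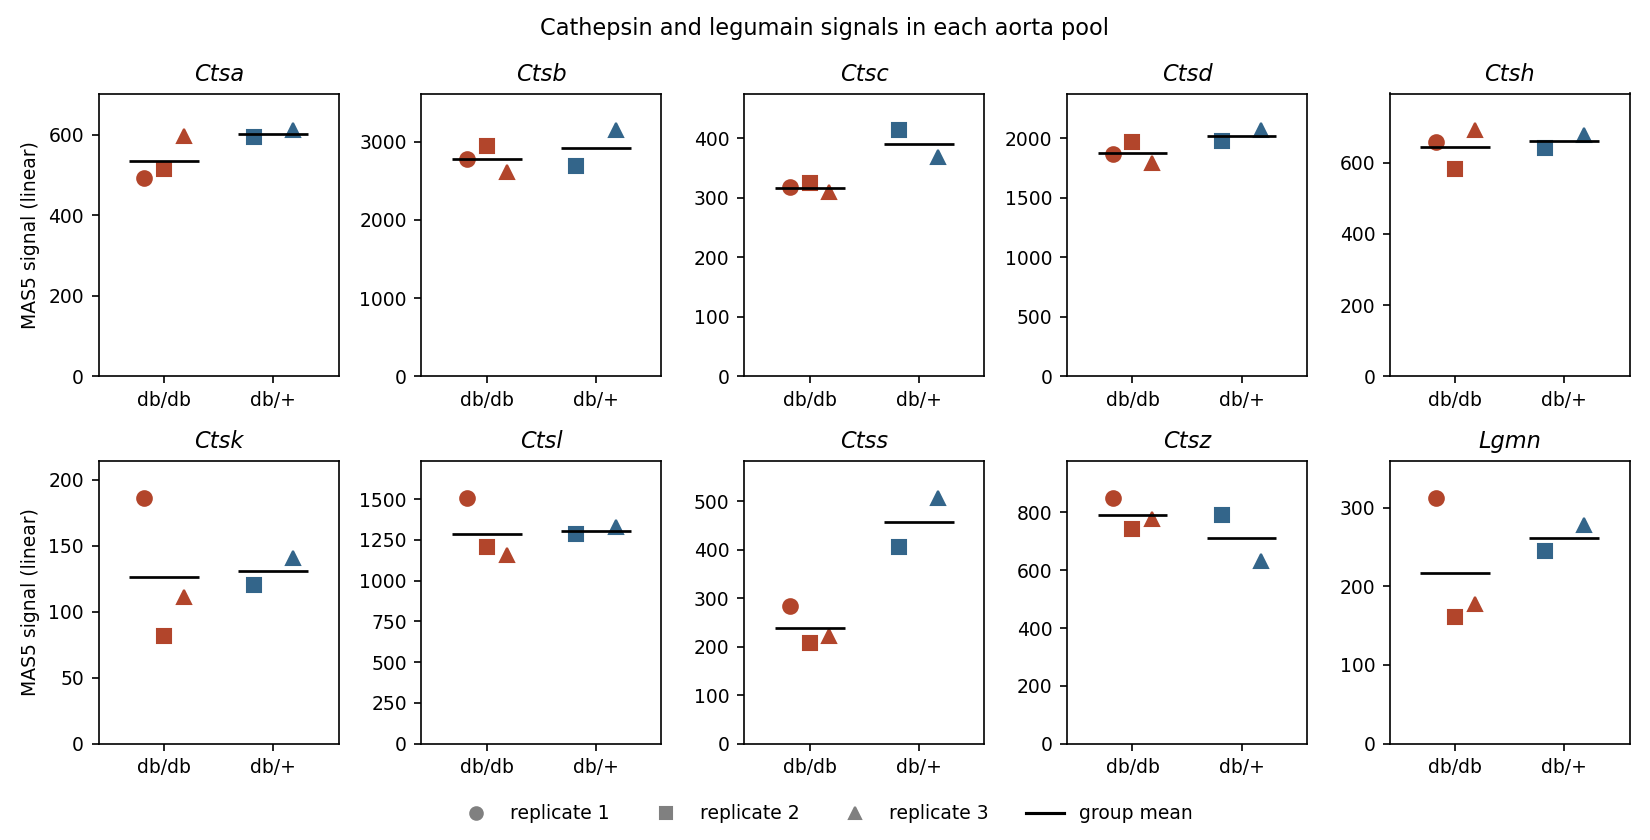
MAS5 signal (vertical axis, linear, from 0) of the 10 genes, 1 panel each, in the 3 db/db pools and the 2 db/+ pools, with markers for replicate numbers and a line at each group mean. The db/db pools of Ctss lie between 206.7 and 284, under both db/+ pools at 405.7 and 506.5, while the groups of most other genes overlap.

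The other elastin- and collagen-cutting endopeptidases were not separated in this way. Ctsl, cathepsin L, which in mice cuts the invariant chain in the thymus and takes part in general lysosomal protein breakdown, had 1508, 1205 and 1155 in the db/db pools, against 1284 and 1332 in the db/+ pools. Its highest value was in db/db replicate 1 and its other db/db values were below both db/+ values. The change was −0.03 (SE 0.17, adjusted p 0.98 by limma). Ctsk, cathepsin K, the collagen-cutting protease of osteoclasts, had 186.4, 81.8 and 111.2 in the db/db pools, against 120.2 and 141 in the db/+ pools. The db/db pools of Ctsk lay on both sides of the db/+ pools, and the highest was 2.28 times the lowest, the widest range within db/db of the 10 genes. Its change was −0.10 with a 95% interval of −0.74 to 0.53 (adjusted p 0.95), and it was −0.39 when db/db replicate 1 was left out but 0.13 when replicate 2 was.

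Ctsb, cathepsin B, which cuts within chains and also removes dipeptides from carboxyl ends, was read by 4 probe sets that did not agree in direction. The brightest, 1417490_at, had 2783, 2946 and 2619 in the db/db pools, against 2686 and 3148 in the db/+ pools, and the groups overlapped (change −0.06, SE 0.16, adjusted p 0.95). Probe set 1417492_at had 228.5, 169.7 and 256.4 in db/db pools, against 261.3 and 268 in db/+ pools. Here every db/db pool was lower, with a change of −0.28 (SE 0.19, adjusted p 0.79). Probe set 1448732_at had 2248, 2062 and 2051 in db/db pools, against 2043 and 2011 in db/+ pools. There every db/db pool was higher, by a margin far smaller than the spread within db/db (change 0.06, adjusted p 0.95). The remaining probe set, 1417491_at, overlapped, with a change of −0.05.

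The exopeptidases each trim chain ends. Ctsc, cathepsin C or dipeptidyl peptidase I, activates many granule serine proteases of mast cells, neutrophils and cytotoxic lymphocytes. Its signal was 317.4, 324.2 and 309.7 in db/db pools, against 413.2 and 367.7 in db/+ pools. The db/db pools lay close together, within 1.05 times of each other, and all were under both db/+ pools. The mean was 317 ± 7.25 in db/db (SD, n = 3) and 390 ± 32.2 in db/+ (SD, n = 2), and the log2 change was −0.29 (SE 0.15, 95% interval −0.63 to 0.06, unadjusted p 0.096, adjusted p 0.69). This change was smaller than that of Ctss, and its interval included 0.

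Ctsh, cathepsin H, an aminopeptidase, had 656.9, 583.7 and 690.9 in db/db pools, against 642 and 678.6 in db/+ pools. The groups overlapped, with a change of −0.04 (SE 0.16, adjusted p 0.97). Ctsz, cathepsin Z, a carboxypeptidase that takes off single residues, was the only gene of the 10 with a positive change by its brightest probe set. That probe set, 1417868_a_at, had 850.2, 741.7 and 778.4 in db/db pools, against 789.4 and 631 in db/+ pools. Only db/db replicate 1 was above both db/+ pools. The change was 0.16 (SE 0.17, adjusted p 0.87), and with 1 db/+ pool left out it was 0.31 (without replicate 2) or −0.00097 (without replicate 3). The other Ctsz probe sets also overlapped between genotypes, with changes of 0.27 (SE 0.31) for 1417869_s_at, whose suffix marks probes that can match other transcripts, and 0.04 for 1417870_x_at, which may cross-hybridise.

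Outside the papain family, Ctsd, cathepsin D, the main aspartic protease of lysosomes, had 1872, 1967 and 1793 in db/db pools, against 1979 and 2067 in db/+ pools. All db/db pools were lower, but the nearest pools of the groups were almost level, and the change was −0.11 (SE 0.15, 95% interval −0.45 to 0.24, adjusted p 0.91). Ctsa, cathepsin A, which protects lysosomal beta-galactosidase and neuraminidase from breakdown, had 492, 514.1 and 596.9 in db/db pools, against 593.1 and 610.7 in db/+ pools. Only db/db replicate 3 reached into the db/+ range, and the change was −0.17 (SE 0.16, adjusted p 0.86). Lgmn had 312.4, 160.7 and 177 in db/db pools, against 245.3 and 277.3 in db/+ pools. Here db/db replicate 1 was the highest of all pools and the other db/db pools were the lowest. The change of Lgmn was −0.31 (SE 0.26, 95% interval −0.90 to 0.29, adjusted p 0.84). Leaving out db/db replicate 1 gave −0.58, and leaving out replicate 2 gave −0.14.

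**Figure D2:**
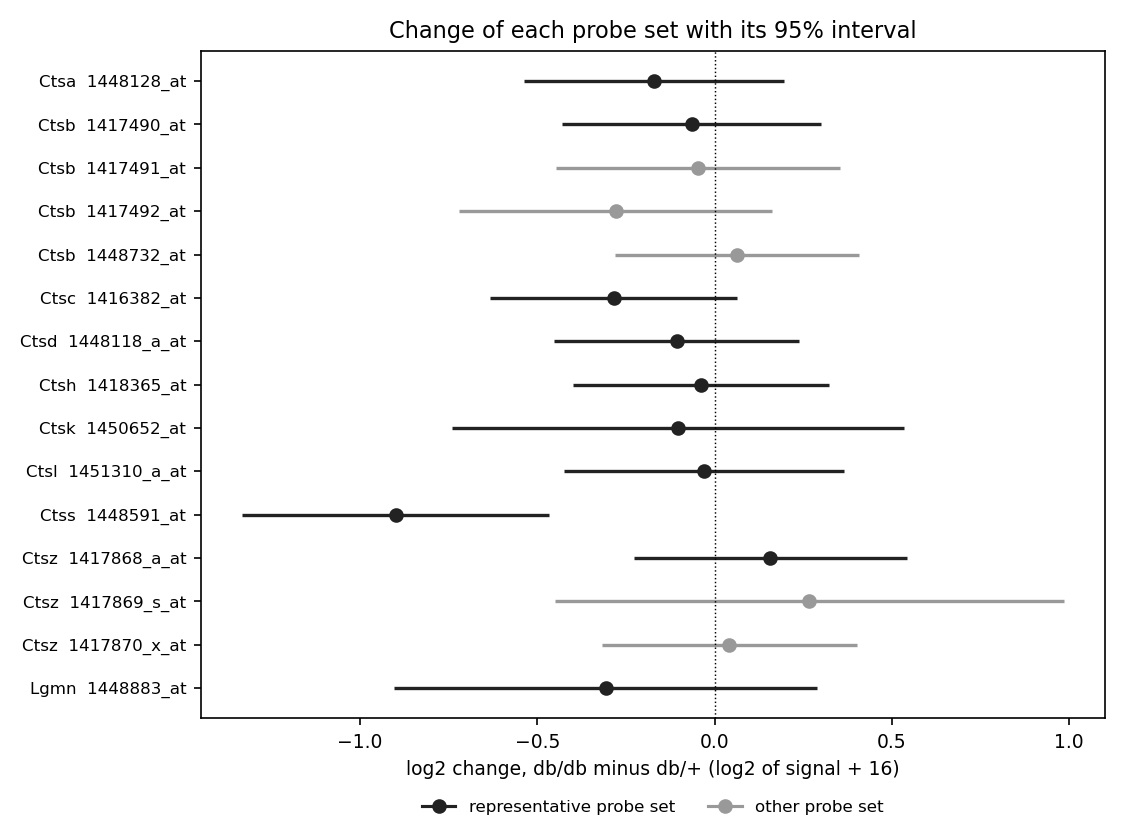
Log2 change, db/db minus db/+ (horizontal axis, log2 of signal + 16), of the 15 probe sets, with limma's 95% interval as a line; black marks the probe set with the highest mean of each gene and grey the others. The interval of Ctss, −1.33 to −0.47, is the only one that does not include 0, and these intervals are not adjusted for the number of probe sets.

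By their brightest probe sets, 9 of the 10 genes had a negative change and 1 a positive one, with a median of −0.11. Over all genes tested the median was 0.02 and 46.1% were negative. The changes of 7 of the 10 genes were within 0.2 of 0, as were 63.7% of all genes. Every db/db pool was below both db/+ pools for 3 genes, Ctss, Ctsc and Ctsd, against 12.0% of all genes, and none had every db/db pool above, against 13.7% of all genes. Among the 15 probe sets these counts were 4 and 1, against 11.9% and 13.1% of all probe sets. With 10 genes these shares rest on few values. The count of 3 genes was 6 without db/db replicate 1, when Ctsk, Ctsl and Lgmn joined it, and 5 without db/+ replicate 2, when Ctsa and Ctsb did.

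The db/db pools differed among themselves. Relative to the db/+ mean, the median over the 10 genes was −0.03 in db/db replicate 1, −0.20 in replicate 2 and −0.17 in replicate 3. Replicate 1 had the highest signal of the db/db pools for 5 genes (Ctsk, Ctsl, Ctss, Ctsz and Lgmn) and the lowest for 1, Ctsa. Leaving out single pools moved the Ctss change between −1.05 and −0.74, always negative, with adjusted p between 0.11 and 0.98 over all alternatives run. The sign of Ctsb, Ctsh, Ctsk, Ctsl and Ctsz turned when 1 pool or another was left out, and that of Ctsa, Ctsc, Ctsd, Ctss and Lgmn did not.

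**Figure D3:**
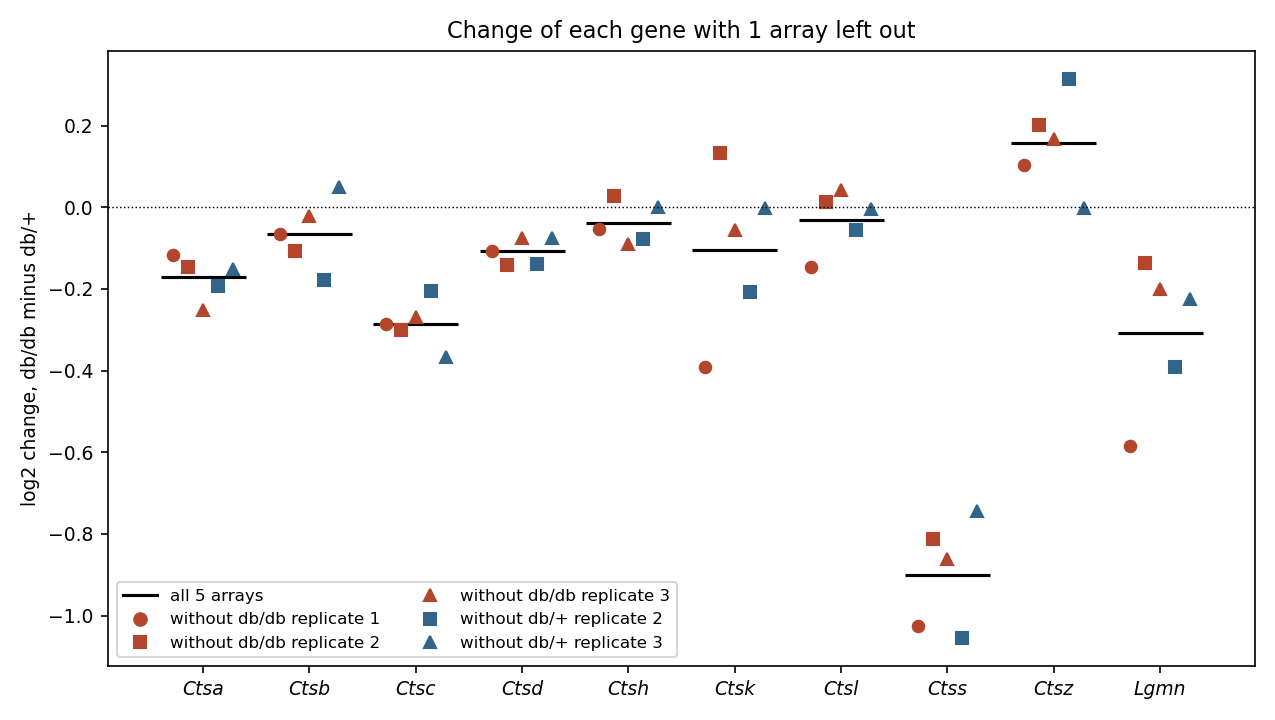
Log2 change, db/db minus db/+ (vertical axis), of the 10 genes with all 5 arrays (black line) and with each array left out in turn (markers; red for a db/db array, blue for a db/+ array). Ctss stays between −1.05 and −0.74, Lgmn spreads from −0.58 to −0.14, and the markers of Ctsb, Ctsh, Ctsk, Ctsl and Ctsz lie on both sides of 0.

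Within the same array, the log2 difference between Ctss and each other member was lower in db/db by between −1.06 (against Ctsz) and −0.59 (against Lgmn). An exact permutation test of each difference gave p 0.2, the smallest value that 10 splits of the arrays allow, so it cannot decide. The differences are given as a description, since Ctss was chosen after its values were seen and the 9 differences share its signals. Arnt, which lies near Ctss on chromosome 3, had a change of 0.09 (SE 0.23), and its groups overlapped.

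Markers of macrophages, which are known to make Ctss, were lower in the same pools. Of 24 markers measured, 20 passed the filter, 0 were called and 19 had a negative change. For 14, every db/db pool was below both db/+ pools, against 12.0% of all genes tested. Under other settings up to 3 were called, and 1 was called without db/db replicate 2. Their median change was −0.51, and their summed signal ran from 3555 to 3855 in db/db pools and from 5446 to 6494 in db/+ pools. No marker of the list was at 0 on all arrays, and Aif1, Msr1, Itgam and Cx3cr1 were under the filter. Lyz2, lysozyme, had 561.8, 459.4 and 666.1 in db/db pools, against 1117 and 1296 in db/+ pools (change −1.09, adjusted p 0.10). Csf1r, the receptor for the macrophage growth factor, had 956.6, 855 and 839.9 in db/db pools, against 1099 and 1459 in db/+ pools (change −0.51, adjusted p 0.47). The part of macrophage number in the Ctss values was not tested.

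Endothelial markers were lower as well, for 7 of 12 genes without overlap and with a median of −0.41, with 0 called, while smooth muscle markers had a median of 0.19 and 3 of 12 without overlap, all higher. Over all genes tested, 12.0% were lower and 13.7% higher without overlap. Summed endothelial signal was 2086 to 2546 in db/db pools and 2906 to 3185 in db/+ pools. Fibroblast markers had a median of 0.07. The share of these cell types in the values of the cathepsins was not tested.

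The partners of Ctss in class II antigen presentation did not share its direction. Of 9 such genes measured, 7 passed the filter and 0 were called. All 7 had a positive change, with a median of 0.37 (0.59 without db/+ replicate 3). Without overlap 4 were higher, against 13.7% of all genes. Cd74, the invariant chain that Ctss trims, had 1038, 711.6 and 896.6 in db/db pools, against 481.9 and 585.8 in db/+ pools. All db/db pools were higher, with means of 882 ± 164 in db/db (SD, n = 3) and 534 ± 73.5 in db/+ (SD, n = 2) and a change of 0.70 (adjusted p 0.35). H2-Eb1, a class II chain, had 423.7, 452.6 and 470.2 in db/db pools, against 255.5 and 276 in db/+ pools, again without overlap (change 0.72, adjusted p 0.19). H2-Aa (0.54) and Ifi30, a thiol reductase of antigen processing (0.37), were also higher in every db/db pool and not called.

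Granule serine proteases, of which Ctsc activates many but not all, were mostly under the filter: 11 were measured and 3 tested. Those tested were the mast cell proteases Cma1, Mcpt4 and Tpsb2, which are also mast cell markers, and all were lower in every db/db pool, with a median of −1.27. Over all 11 measured, without the filter, the median was −0.42. None was called with all arrays, and 1 was called without db/db replicate 3 and with array weights. Tpsb2, a tryptase, had 51.9, 28.7 and 50 in db/db pools, against 129 and 122.1 in db/+ pools (change −1.27, adjusted p 0.079). Mcpt4 had a change of −1.45 (adjusted p 0.13) and Cma1, a chymase, of −0.80 (adjusted p 0.19). The mast cell list held 5 tested genes, 4 of them lower without overlap, against 12.0% of all genes. Its summed signal was 336 to 410 in db/db pools and 734 to 749 in db/+ pools. The part of mast cell number in the Ctsc values was not tested.

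Among the inhibitors of the cysteine cathepsins, Cst3, the secreted cystatin C, had 4261, 4203 and 4796 in db/db pools, against 4338 and 4790 in db/+ pools, and overlapped (change −0.05, adjusted p 0.97). Cstb, a cytosolic stefin, had a change of −0.15 and Serpinb6a of −0.16, also with overlap, and none of the 3 tested inhibitors of 7 measured was called. A further Cstb probe set went the other way, with a change of 0.09, and overlapped too. Of the other cathepsins, 11 were measured and 2 passed the filter. Ctsf had a change of −0.23 (adjusted p 0.83) and Ctse, by its brightest probe set, of −0.03, with overlap. A further Ctse probe set had 79.4, 74.9 and 63.1 in db/db pools, against 53.9 and 62.6 in db/+ pools. There every db/db pool was higher (change 0.25, adjusted p 0.77 by limma). Ctsw of cytotoxic lymphocytes was under the filter, with 9.30 ± 3.44 in db/db and 12.5 ± 6.43 in db/+.

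The receptors that carry cathepsins to the lysosome differed in direction. M6pr, the smaller mannose 6-phosphate receptor, had 688.1, 579.7 and 684.2 in db/db pools, against 521.5 and 474.5 in db/+ pools (change 0.37, adjusted p 0.61). Igf2r, the larger one, had 440.8, 457.4 and 524.3 in db/db pools, against 631.3 and 704.3 in db/+ pools (change −0.48, adjusted p 0.45). Neither was called, and a further probe set of each overlapped between genotypes. In the whole sorting list, 13 genes were tested, 0 were called and the median was 0.03. Without overlap 2 were lower and 4 higher, against 12.0% and 13.7% of all genes. Sort1, which sorts lysosomal enzymes without the mannose tag, had a change of 0.19, and Ap1s1, an adaptor subunit, of 0.37.

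No gene was called among the other lysosomal lists, whose members went both ways. The counts without overlap stand against 12.0% lower and 13.7% higher over all genes tested. Of 28 other hydrolases tested, 0 were called, 4 were lower and 5 higher without overlap, and the median was 0.04; those with the smallest p were Idua (0.30), Plbd2 (0.34), Hexa (0.27) and Fuca1 (−0.26). Of 16 subunits of the V-ATPase, the proton pump that acidifies the lysosome, 0 were called, 3 were lower and 1 higher without overlap, and the median was −0.06. Tcirg1, a subunit known from osteoclasts and macrophages, was the lowest of them (−0.36, adjusted p 0.64), followed by Atp6v1b2 (−0.21), while Atp6v0e was at 0.13 and Atp6v0b at 0.19. Of 14 lysosomal membrane proteins, 0 were called, 5 were lower and 3 higher without overlap, and the median was −0.06. The lowest were Cd68, also counted as a macrophage marker, at −0.67 (adjusted p 0.35) and Slc11a1, a metal transporter of phagocytes, at −0.41 (adjusted p 0.57), with Scarb2 at −0.25 and Mcoln1 at 0.29. The regulators of lysosome genes had 5 tested and 0 called, 1 higher without overlap (Mitf) and a median of −0.10, with Tfeb and Mitf both at 0.12, Rragc at −0.13 and Flcn at −0.37.

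**Figure D4:**
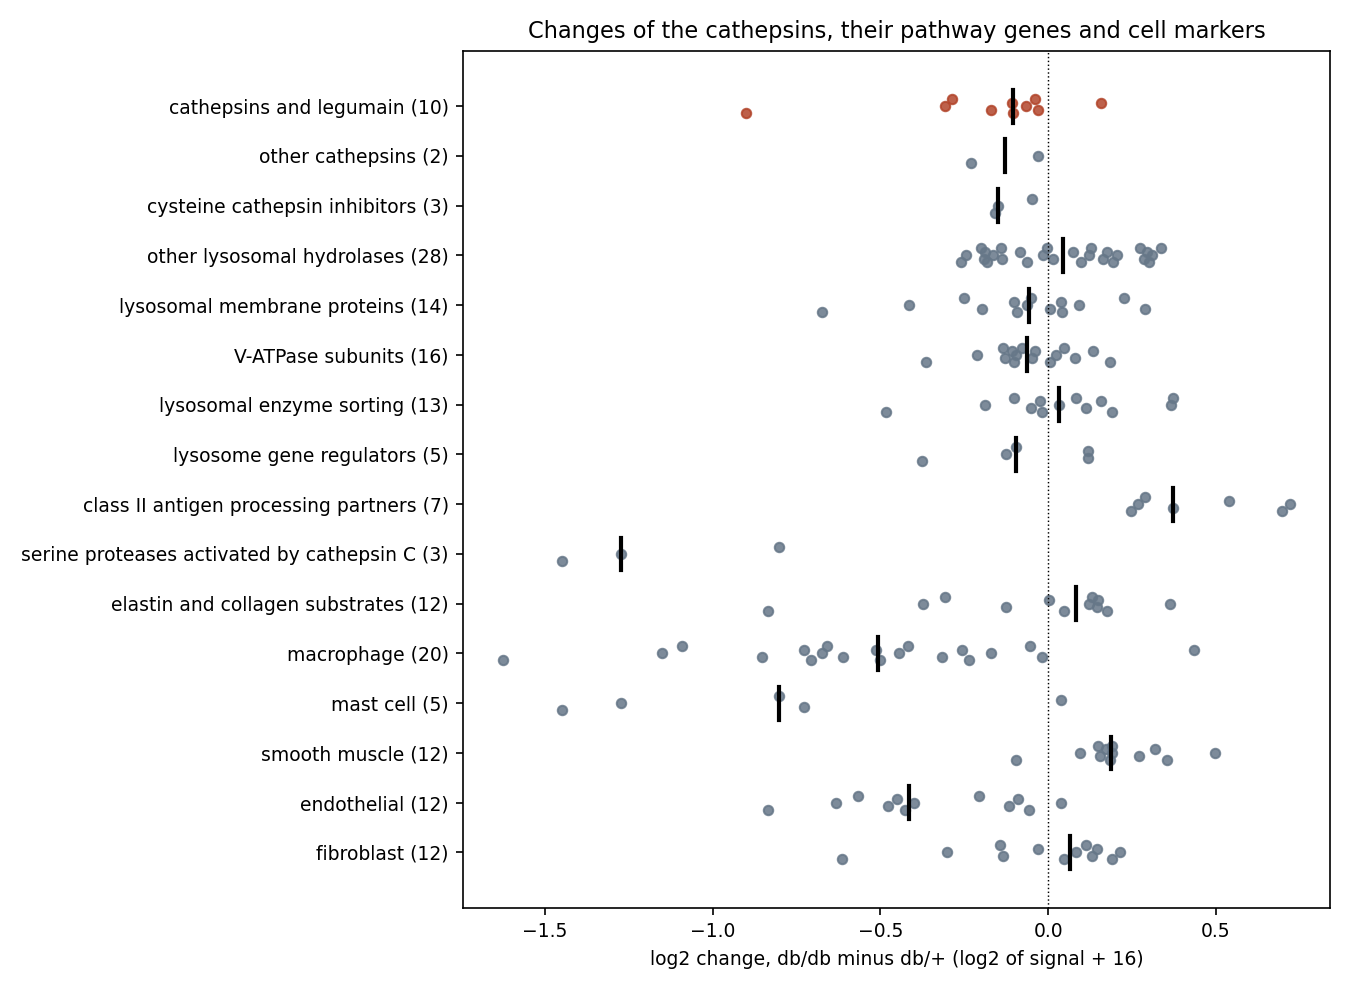
Log2 change, db/db minus db/+ (horizontal axis), of each tested gene in the cathepsin set (red, top row), its pathway lists and 5 cell-type marker lists (grey), with the number of genes in parentheses and a black bar at each median. Ctss, at −0.90, lies apart from the other 9 members, which run from −0.31 to 0.16. The macrophage median is −0.51 and that of class II partners 0.37. The row of cysteine cathepsin inhibitors includes Serpinb6a, which is not known as one. The row of proteases activated by cathepsin C includes the tryptase Tpsb2, not known to need it in mice.

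Facts of the arrays that touch these values are few. The 2% trimmed mean was 150.1 on every array, the median signal of an array was 59 to 61.5, and 19.0% to 22.0% of probe sets were dimmer than 16. The 3′ to 5′ ratio of actin, a sign of RNA quality, was 1.14 to 1.32 in db/db and 1.28 to 1.34 in db/+. Lepr itself had 81.2 ± 9.67 in db/db (SD, n = 3) and 65.4 ± 8.70 in db/+ (SD, n = 2) by its brightest probe set (change 0.26, adjusted p 0.77). A probe set under the filter had 35.5, 23.3 and 23.7 in db/db pools, against 4.6 and 6.1 in db/+ pools, without overlap. Lepr does not check the genotype labels, since the db mutation alters splicing and does not delete the gene. Smooth muscle markers such as Acta2 were bright on all arrays (8413 ± 762 in db/db and 7457 ± 1524 in db/+). Adipocyte markers also gave signal on every array, although the fat around the vessel had been removed. Their sum ran from 9181 (replicate 1) to 16911 (replicate 2) in db/db pools, and from 13357 to 13696 in db/+ pools. The summed signal of hepatocyte markers was 430 to 784 in db/db pools and 1658 to 1660 in db/+ pools, although 1 of the 9 tested, Apoa1, was higher in every db/db pool (change 0.81), and the sum of cardiac muscle markers was highest in db/db replicate 2 (4536, against 852 to 1845 on the other arrays). The part of adipocyte, hepatocyte and cardiac muscle RNA in the cathepsin values was not tested.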

How the data were processed

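The deposited table holds 1 intensity per probe set and array on a linear scale, made by the authors with MAS5 according to the submitters' processing notes, where no version is given. MAS5 subtracts background and scales each array to 1 trimmed mean, so no further normalization was applied. Of 22690 probe sets, 64 controls were left out; the platform annotation gave 1 symbol for 20380, several for 691 (not named) and none for 1555. Arrays were grouped by their labels. Intensities were transformed to log2(signal + 16), which understates changes of dim genes. Probe sets whose mean was above the 40th percentile, a signal of about 39.5, were tested by limma 3.58.1 (R 4.3.3), using lmFit and then eBayes without covariates. Tests were two-sided, with Benjamini-Hochberg adjustment over 13575 probe sets and 3 residual and 5.63 prior degrees of freedom. Each gene was represented by its probe set with the highest mean. The fit was tested on simulated data. Precision is limited by the number of arrays.

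The members and the 10 pathway and 12 marker lists were chosen with earlier results of these data known, so lists are described by counts and medians and not tested. The text names all members, up to 4 genes of each pathway list by smallest unadjusted p, some preset genes (Cst3, Cstb, Cd74, Eln, Ctse, Ctsf, Ctsw), and up to 2 markers of each list by highest mean. Arnt, the macrophage markers under the filter, and Apoa1, Lep and Bhmt were named after their values were seen. Alternatives were pseudocounts of 1 and 64, no filter or one at the 60th percentile, quantile normalization or median centring, trend and robust options of eBayes, weighting of arrays, a block on the replicate number, leaving out each array, a threshold of 0.1, and averaging the probe sets of a gene.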

Additional observations from a re-analysis of the deposited data

How the results depend on the processing

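No member probe set or gene passed the adjusted p of 0.05 under any alternative run with limma, so that count stayed at 0 (with 1, Ctss, at an unadjusted p under 0.05 with all arrays), and the median over the 10 genes stayed negative, between −0.19 and −0.04. The count over all probe sets, 11 as reported, was 1 with a pseudocount of 1, 35 with a pseudocount of 64, 1 without a filter, 22 with a filter at the 60th percentile, 19 after median centring, 39 with trend and robust eBayes, 48 with array weights and 48 at a threshold of 0.1. Quantile normalization gave 8. With 1 array left out it ran from 0 (without db/+ replicate 2, where 761 had an unadjusted p under 0.05) to 28 (without db/db replicate 1). The number of member genes with every db/db pool lower, 3 as reported, ran from 3 to 6 when 1 array was left out, an alternative chosen after seeing the data. The cause of these differences was not tested. Both groups have replicates 2 and 3, and the correlation of deviations from the group means was 0.11 for number 2 and −0.0048 for number 3. With 2 db/+ arrays, the deviations of these arrays mirror each other. The check therefore cannot tell whether pools of the same number were paired. With the replicate number as a block 20 probe sets were called, and Ctss had a change of −1.03 (adjusted p 0.11). Because replicate 1 was present only in db/db, the changes under this block equalled those without db/db replicate 1. The medians of macrophage, mast cell and endothelial markers stayed negative and that of class II partners positive under every alternative run. Medians near 0 turned sign under some: that of the sorting genes was −0.0043 after median centring, that of fibroblast markers −0.03 after quantile normalization, that of the membrane proteins 0.03 without db/+ replicate 3 and that of the regulators 0.07 without db/db replicate 1. With 5 arrays, a p above the threshold does not show that values were alike.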

Other observations

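Matrix proteins that cathepsins can cut were measured for 12 genes, all above the filter, with 0 called and a median change of 0.08 (−0.02 after quantile normalization). Eln, elastin, had 4825, 4190 and 3597 in db/db pools, against 3361 and 4052 in db/+ pools, and the groups overlapped (change 0.18, adjusted p 0.87 by limma). Acan, the cartilage proteoglycan aggrecan, had 103.2, 111.5 and 99.4 in db/db pools, against 166.6 and 236.9 in db/+ pools. Every db/db pool of Acan was lower, with a change of −0.83 (adjusted p 0.20), and Fn1, fibronectin, was lower without overlap too (−0.37, adjusted p 0.63). Col4a1, a basement membrane collagen, was higher in every db/db pool (0.36, adjusted p 0.64), and Lamb1 overlapped (−0.31).

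Osteoclast, dendritic cell, neutrophil and lymphocyte markers gave no call. Osteoclast markers, of which Ctsk is a classical companion, had a median of 0.17 over 4 tested genes (0.079 without db/db replicate 1), and Acp5, the tartrate-resistant phosphatase, had 125.7, 184.4 and 155.8 in db/db pools, against 117 and 127.6 in db/+ pools, with overlap. Dendritic cell markers had a median of 0.00204 over 4 tested genes (0.19 without db/db replicate 1 and −0.14 without replicate 3). Neutrophil markers had a median of −0.00259 over 3 (0.11 without db/+ replicate 3 and −0.13 without db/+ replicate 2). Lymphocyte markers had a median of 0.49 over 4 tested genes (0.16 without db/db replicate 1); the brightest, Zap70, had 440.2, 235.3 and 235.9 in db/db pools, against 170 and 155.3 in db/+ pools (change 0.78, adjusted p 0.46). Adipocyte markers had a median of −0.10, which was 0.17 when db/db replicate 1 was left out and −0.35 when replicate 2 was. Of 10 tested, 1 was called, Lep, lower in db/db, against 0.109% of all genes tested. With a pseudocount of 1 or without a filter 0 were called. A filter at the 60th percentile left 8 adipocyte markers tested, of which 0 were called. Cardiac muscle markers had a median of −0.07 with 0 of 12 called; it was 0.39 without db/db replicate 1, 0.16 without db/db replicate 3, 0.07 without db/+ replicate 2, −0.52 without db/db replicate 2 and −0.17 without db/+ replicate 3. Hepatocyte markers had a median of −1.29 with 2 of 9 called, Alb and Bhmt, both lower in db/db, against 0.109% of all genes tested. Without overlap 7 were lower and 1 higher, against 12.0% and 13.7% of all genes. The number called was 0 with a pseudocount of 1, without a filter, and without db/+ replicate 2 or 3, it was 1 without db/db replicate 2, and it was 5 without db/db replicate 1. Alb, albumin, had 110.2, 82.2 and 72.3 in db/db pools, against 420.4 and 525.9 in db/+ pools (change −2.24, adjusted p 0.0090).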
